A study of Mus musculus with 6 samples.

Results

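Semaphorins, ephrins, Slits and netrins are the main families of axon guidance ligands, and plexins, neuropilins, Eph receptors, Robos, Dcc and Unc5 proteins are their receptors. Genes of these families were taken by symbol from the table of RNA levels in the pre-limbic cortex (PLc), a medial part of the mouse prefrontal cortex. The table lists 37620 genes, of which 69 have such a symbol. Of these, 67 averaged at least 10 normalized counts per mouse and are described here, among 16127 genes that reached this level. Normalized counts are reads per gene after division by the size factor of their library. The ephrin gene Efna4 lay just inside the minimum, with a mean of 10.9 normalized counts. The Eph receptor gene Epha1, with a mean of 4.90, and Unc5cl, with a mean of 2.51, lay outside it. Unc50 shares only the first letters of its symbol with the Unc5 netrin receptors and is not known as a guidance receptor.

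All mice were of strain C57Bl/6 and 9 weeks old, and the methods of the study describe male mice. Saline mice 1, 6 and 10 received saline vehicle, and ketamine mice 3, 5 and 9 received ketamine at 30 mg/kg. Both were injected intraperitoneally each day for 5 days, and the tissue was taken 2 days after the last of these days. Each mouse gave its own library. The comparison asks whether sub-chronic ketamine, an NMDA receptor antagonist, was followed by different expression of these genes in the PLc.

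Guidance ligands attract or repel growing axons through receptors on the growth cone. Semaphorins signal through plexins, and most secreted class 3 semaphorins also need a neuropilin. Ephrins are held on the cell surface and bind Eph receptors of a touching cell, with signals in both directions. Slits bind Robos and repel axons, whereas netrins attract axons through Dcc and can repel them through Unc5 receptors. In the mature cortex many of these proteins are also present at synapses, where they are known to act on dendritic spines and synaptic contacts.

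Between 26273436 and 32643726 reads were assigned to genes per library. Markers of other regions and cells differed between the mice. All 15 tested markers of striatal medium spiny neurons had a higher mean in ketamine mice. Their summed level was 6928 to 8677 normalized counts in saline mice, against 62190.1, 30833 and 8838 in ketamine mice 3, 5 and 9. The striatal markers Isl1 and Six3 were at 0 in saline mice 1 and 6, and Six3 also in ketamine mouse 9. All 10 olfactory bulb markers also had a higher mean in ketamine mice, with a summed level between 241 and 889.5 in saline mice and of 2626, 1516.5 and 12082 in ketamine mice 3, 5 and 9. The 8 markers of cortical excitatory neurons summed to between 182526 and 234066 in saline mice and to 105144, 177037 and 141512 in ketamine mice 3, 5 and 9, and all 8 had a lower mean in ketamine mice. Of 11 cortical deep-layer markers, 9 had a higher and 2 a lower mean in ketamine mice, and of 8 upper-layer markers 3 and 5. The 10 oligodendrocyte markers summed to 393344 in saline mouse 10 and to between 45862 and 167326 in the other mice. All 8 endothelial markers were detected, and their sum stayed between 5168.5 and 5929 in all 6 mice. The part of these differences in the results on guidance genes was not tested.

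In saline mice the level of the 67 genes ranged from 5.12 to 1486 normalized counts per kb of exon, with a median of 134.6. The median of all genes tested that have a known length was 156.2, and 28 guidance genes were above it. The 5 most abundant made up 35.9% of the summed level per kb. They were Sema7a, a lipid-anchored semaphorin, at 1486, the Eph receptors Ephb6 at 1452 and Epha4 at 1320, the transmembrane semaphorin Sema6b at 1072, and the ephrin Efnb3 at 727.8 normalized counts per kb. The single mice of Sema7a, Ephb6 and Epha4 overlapped in level per kb, so the order of these 3 genes is not separated by their spread. Among the receptors of other families, Unc5a reached 633.9 and Plxna1 478.3 per kb, while Dcc was at 28.2. The secreted class 3 semaphorins were less abundant, between 23.1 per kb for Sema3b and 153 per kb for Sema3c. The standard deviation between saline mice had a median of 19.8% of the mean, and was 81.7% for Efnb3 and 41.0% for Ephb6. Exon bases of 13 of the 67 genes are shared with another annotated gene. The value of Efna5 is uncertain, since a second entry for the gene, listed at 0, shares 59.9% of its exon bases.

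**Figure D1:**
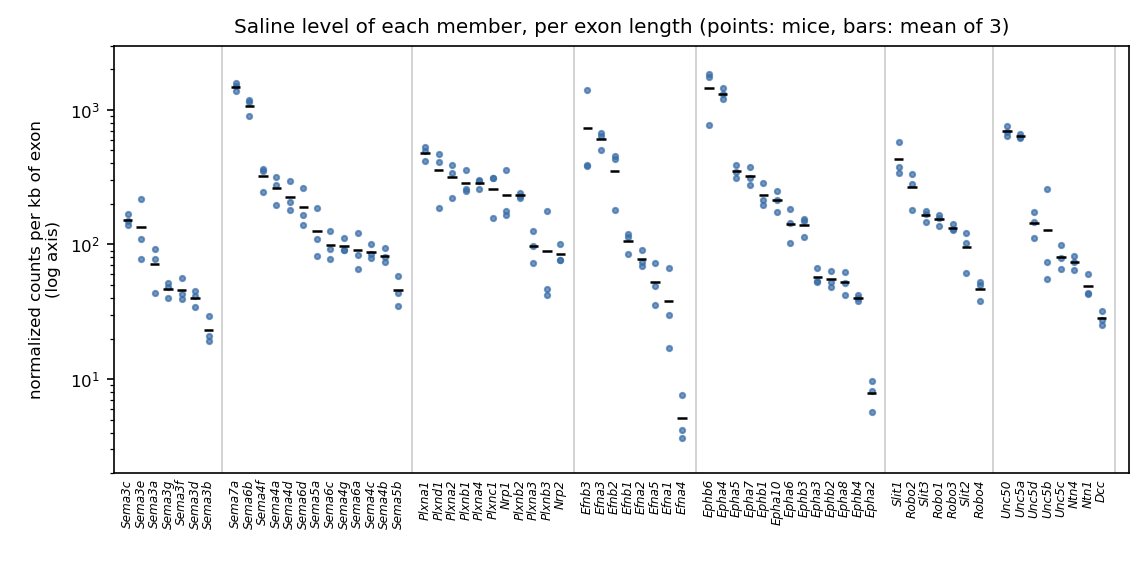
Level of the 67 genes in the 3 saline mice, in normalized counts per kb of exon on a log axis, grouped by family, with a point per mouse and a bar at the mean. Sema7a, Ephb6, Epha4 and Sema6b have means above 1000 per kb, and Efna4 is lowest at 5.12.

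Ketamine and saline were compared with limma on log2(normalized count + 1), and p-values were adjusted over all 16127 genes. Log2 fold changes are ketamine minus saline on this scale, which understates the change of low genes. Of the 67 guidance genes, 34 had a higher and 33 a lower mean in ketamine mice, and the median log2 fold change was 0.01, against -0.01 over all genes tested. limma called 0 of them at an adjusted p under 0.05, as edgeR did, and each of these tests also called 0.0% of all genes. Their smallest adjusted p by limma was 0.283. At an unadjusted p under 0.05, limma gave 7 guidance genes, or 10.4%, against 5.81% of all genes. Of these, 2 were higher in ketamine mice, where 3.44% of all genes were, and 5 lower, where 2.37% were. At the same unadjusted threshold edgeR gave 8, or 11.9%, against 6.24% of all genes, and DESeq2 gave 10, or 14.9%, against 6.54%. DESeq2, the package used in the study, gave 4 at an adjusted p under 0.05, and all 4 were lower in ketamine mice: Robo3, Ephb2, Epha4 and Sema7a. These are 5.97% of the guidance genes, where DESeq2 called 0.229% of all genes lower, 0.899% higher and 1.13% in either direction.

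The call by DESeq2 depended on single mice. With a mouse left out, DESeq2 called between 1 and 8 guidance genes. Robo3 was called in 8 of 8 fits, namely that with all mice, those without 1 mouse and that without ketamine mice 3 and 5, which had the highest striatal marker levels. Ephb2 was called in 7, Epha4 in 5 and Sema7a in 4 of these fits. Without saline mouse 1 the call was Robo3 alone, and without saline mouse 6 or without ketamine mouse 3 it was Robo3 and Ephb2. Without ketamine mouse 5 the 4 calls stayed. Without saline mouse 10 there were 6 calls, 5 lower and Efnb3 higher, and without ketamine mouse 9 there were 8, of which 4 were higher in ketamine mice: Dcc, Nrp2, Ntn1 and Sema5b. Without ketamine mice 3 and 5 there were 15 calls, 14 of them lower and Ntn4 higher, with ketamine mouse 9 as the only ketamine mouse and its spread taken from the saline mice. Over all genes tested, DESeq2 called 0.513% without saline mouse 1, 0.589% without saline mouse 6, 3.11% without saline mouse 10, 0.641% without ketamine mouse 3, 1.7% without ketamine mouse 5, 2.71% without ketamine mouse 9 and 7.96% without ketamine mice 3 and 5.

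The groups did not overlap for 7 guidance genes, or 10.4%, against 10.3% of all genes tested. Robo3, Epha4, Ephb2 and Sema7a were lower in every ketamine mouse than in any saline mouse, a pattern of 4.66% of all genes. Sema3f, Sema4g and Ntn4 were higher in every ketamine mouse, a pattern of 5.69% of all genes. The guidance genes had shares of 5.97% and 4.48%, near the background in both directions. With 3 mice against 3, a two-sided exact permutation test cannot give a p below 0.1, which is the value of each of these 7 genes. The p-values of limma, edgeR and DESeq2 weigh the difference between the groups against the spread between these mice.

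**Figure D2:**
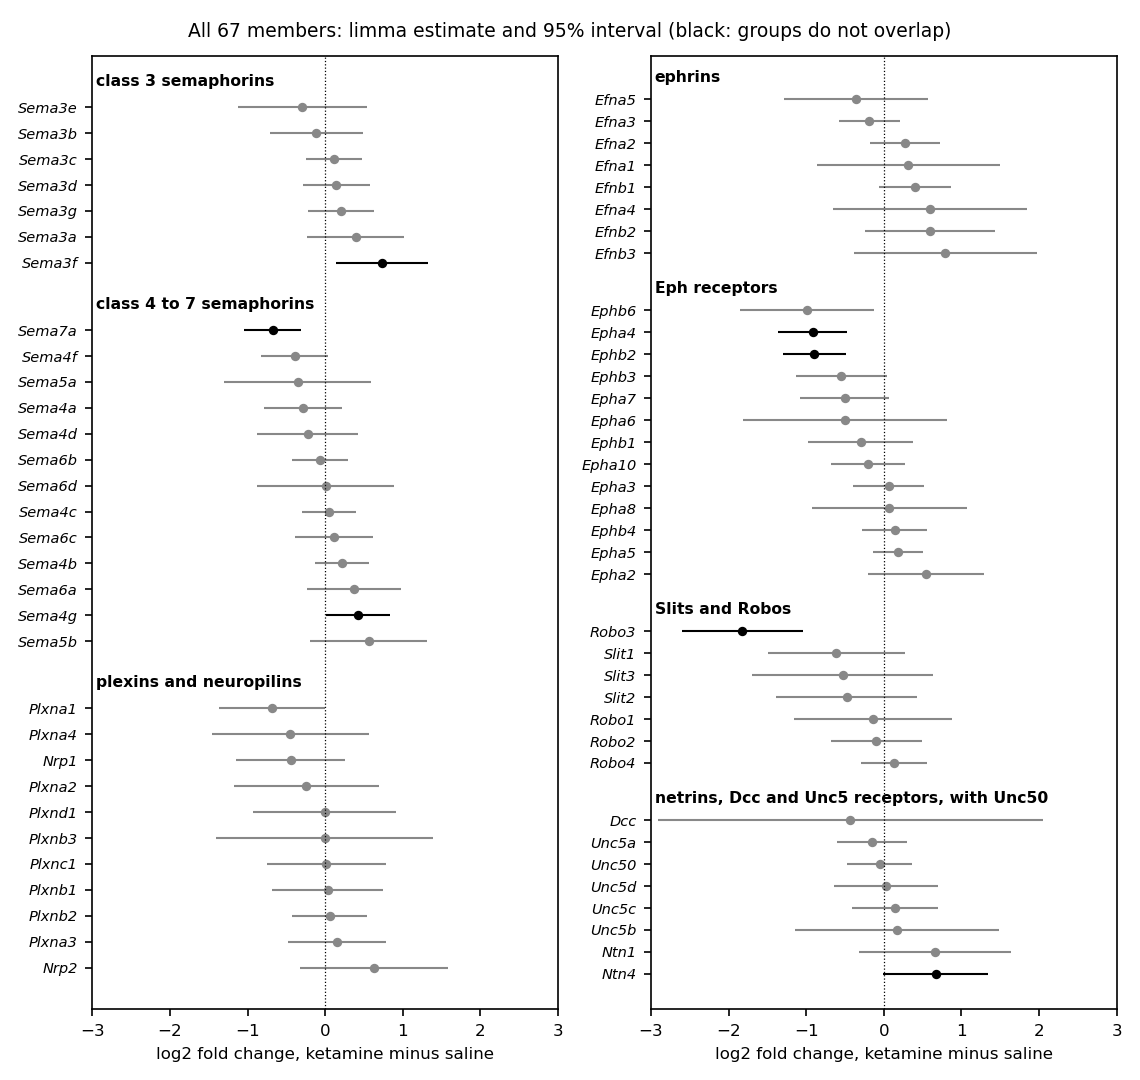
Log2 fold change of the 67 genes, ketamine minus saline, by limma on log2(normalized count + 1), with 95% intervals, grouped by family. Black marks the 7 genes whose groups do not overlap; Robo3 has the lowest estimate, -1.82, and Dcc the widest interval.

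The starts of the 4 genes called by DESeq2 are shown because no other guidance gene was called with all mice, and limma and edgeR called 0. The sequences run from 250 bases before to 50 bases after the transcription start and are from RefSeq (GRCm38.p6). Each was found exactly once on the mm9 chromosome and strand of its gene, at chr9:37240711-37241010 on the minus strand for Robo3, chr1:77511614-77511913 on the minus strand for Epha4, chr4:136391878-136392177 on the minus strand for Ephb2 and chr9:57787669-57787968 on the plus strand for Sema7a. Other chromosomes were not searched. Capitals mark the GC box GGGCGG and the half-site TGACG of the cAMP response element, on either strand.
Robo3: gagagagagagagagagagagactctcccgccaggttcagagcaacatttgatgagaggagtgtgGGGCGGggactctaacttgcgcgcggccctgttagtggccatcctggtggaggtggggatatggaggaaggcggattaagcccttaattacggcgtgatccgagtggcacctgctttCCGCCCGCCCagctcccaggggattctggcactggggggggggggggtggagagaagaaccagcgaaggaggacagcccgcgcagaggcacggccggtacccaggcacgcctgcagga
Epha4: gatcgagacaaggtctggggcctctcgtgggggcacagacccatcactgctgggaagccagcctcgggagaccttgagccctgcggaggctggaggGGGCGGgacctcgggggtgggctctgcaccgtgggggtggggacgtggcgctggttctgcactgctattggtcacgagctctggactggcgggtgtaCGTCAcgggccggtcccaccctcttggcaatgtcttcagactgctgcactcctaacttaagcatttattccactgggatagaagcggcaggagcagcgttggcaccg
Ephb2: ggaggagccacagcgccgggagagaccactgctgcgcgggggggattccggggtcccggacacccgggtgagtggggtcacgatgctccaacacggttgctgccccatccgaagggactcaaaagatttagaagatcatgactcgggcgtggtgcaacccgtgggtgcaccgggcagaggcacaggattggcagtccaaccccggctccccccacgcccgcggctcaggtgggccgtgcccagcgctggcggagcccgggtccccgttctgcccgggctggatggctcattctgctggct
Sema7a: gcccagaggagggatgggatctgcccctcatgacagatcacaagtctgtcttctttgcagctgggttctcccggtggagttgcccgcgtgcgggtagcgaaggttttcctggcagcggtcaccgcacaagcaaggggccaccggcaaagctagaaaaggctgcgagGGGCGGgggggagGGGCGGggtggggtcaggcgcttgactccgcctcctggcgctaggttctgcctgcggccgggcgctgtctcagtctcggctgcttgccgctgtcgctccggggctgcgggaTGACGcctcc
The GC box was found 3 times in the window of Robo3, where 2 of the matches overlap, 2 times in that of Sema7a, 1 time in that of Epha4 and 0 times in that of Ephb2. Over 32851 promoters of this length, 35.7% hold it. The half-site was found 1 time each for Epha4 and Sema7a and 0 times for Robo3 and Ephb2, and 20.8% of the promoters hold it. A match describes the letters only.

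Robo3 encodes a divergent Robo receptor, best known for letting commissural axons cross the midline. It lies at chr9:37223254-37240760 of mm9, on the minus strand. Saline mice 1, 6 and 10 had 872, 954 and 879.6 normalized counts, against 170.3, 443 and 217 in ketamine mice 3, 5 and 9. The saline mice were close together, and the highest ketamine mouse was well below the lowest saline mouse. The mean was 901.6 ± 45.1 in saline mice, against 276.7 ± 146 in ketamine mice (SD, n = 3 each). limma gave a log2 fold change of -1.82 (SE 0.332, 95% interval -2.60 to -1.04, adjusted p = 0.283), and DESeq2 gave -1.70 (SE 0.353, adjusted p = 0.00042). All 8 markers of excitatory neurons also had a lower mean in ketamine mice. In the cortical layer lists, 5 of 8 upper-layer and 2 of 11 deep-layer markers did, and the others were higher. The summed excitatory markers were 105144, 141512 and 177037 in ketamine mice 3, 9 and 5, and Robo3 and Sema7a had the same order in these mice. Epha4 and Ephb2 did not have this order. In the saline mice Robo3 and Sema7a did not follow the order of the excitatory sums. The part of these markers in the lower values of Robo3, Epha4, Ephb2 and Sema7a was not tested. In bulk tissue, fewer cells that express a gene cannot be told apart from less RNA per cell.

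The other Robos passed no test in the fits with all mice. Robo1, Robo2 and Robo4, a Robo of blood vessels, had log2 fold changes of -0.14, -0.10 and 0.14 with an adjusted p of 0.999 each by limma. The sign for Robo1 turned to 0.06 by edgeR and 0.05 by DESeq2. Robo2 was the most abundant of the family, with 5496, 4649 and 2977 normalized counts in saline mice 1, 6 and 10, against 4013, 4683 and 3291 in ketamine mice 3, 5 and 9. The mice of both groups were interspersed. Whether Robo3 differs in its change from the other Robos was not tested. The ligands Slit1, Slit2 and Slit3 had log2 fold changes of -0.61, -0.48 and -0.53, also with an adjusted p of 0.999 each. Slit1 had 2006, 2230.4 and 3443 normalized counts in saline mice, against 1939, 2424 and 919 in ketamine mice 3, 5 and 9. Slit2 had 1851, 1543 and 920.2 in saline mice, against 737, 1719 and 770.5 in ketamine mice. In both genes a saline mouse stood apart from the others of its group, mouse 10, which was high in Slit1 and low in Slit2. Ketamine mouse 9 was the lowest mouse for Slit1 and Slit3, and without it the log2 fold changes were -0.20 for Slit1 and 0.09 for Slit3. Without this mouse 4 Slits and Robos were higher and 3 lower, where with all mice 1 was higher and 6 lower.

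Eph receptors are receptor tyrosine kinases, and of the 13 that were tested 8 had a lower and 5 a higher mean in ketamine mice, and the median log2 fold change was -0.30. Among the 5 EphB genes 4 were lower, with a median of -0.55, and among the 8 EphA genes 4 were lower and 4 higher, with a median of -0.07. Without ketamine mouse 9, 6 of the 13 Eph receptors were higher and 7 lower, and their median was -0.09. With all mice, DESeq2 called Epha4 and Ephb2. No Eph receptor was higher in every ketamine mouse.

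Epha4, a receptor for ephrins of both the A and B type that is found on dendritic spines, lies at chr1:77363760-77511663 of mm9, on the minus strand. Saline mice 1, 6 and 10 had 9153, 7661 and 8248 normalized counts, against 3899.8, 5735 and 3828 in ketamine mice 3, 5 and 9. Ketamine mouse 5 was nearest to the saline mice and still below all of them. The means were 8354 ± 751.5 and 4488 ± 1081 (SD, n = 3 each). limma gave a log2 fold change of -0.92 (SE 0.188, adjusted p = 0.346), and DESeq2 gave -0.89 (SE 0.214, adjusted p = 0.00528).

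Ephb2, a receptor for ephrin-B proteins that is known to bind the NMDA receptor at synapses, lies at chr4:136203454-136391903 of mm9, on the minus strand. Saline mice 1, 6 and 10 had 667, 611 and 804 normalized counts, against 415, 392 and 313 in ketamine mice 3, 5 and 9. The 3 ketamine mice were close to each other, with means of 693.8 ± 99.3 in saline mice, against 373.4 ± 53.7 in ketamine mice (SD, n = 3 each). limma gave a log2 fold change of -0.89 (SE 0.175, adjusted p = 0.328), and DESeq2 gave -0.89 (SE 0.212, adjusted p = 0.0047).

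Ephb6, an Eph receptor without kinase activity, had the lowest estimate of the Eph receptors by limma, at -0.99 (SE 0.368, unadjusted p = 0.0307, adjusted p = 0.786), and an adjusted p of 0.179 by DESeq2. Its saline mice 1, 6 and 10 had 6913, 6628 and 2889 normalized counts, against 2106, 3559 and 2271 in ketamine mice 3, 5 and 9. The groups overlapped because saline mouse 10 was below ketamine mouse 5. Without saline mouse 10, DESeq2 called Ephb6.

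The ligands of these receptors did not pass any test in the fits with all mice. Of 8 ephrins, 6 had a higher and 2 a lower mean in ketamine mice, and the median log2 fold change was 0.36. This median came to 0.16 without ketamine mouse 9, where 6 of 7 tested ephrins were higher. All 3 transmembrane ephrin-B genes were higher on average, Efnb1 by 0.41, Efnb2 by 0.60 and Efnb3 by 0.79 on the log2 scale, with adjusted p of 0.929, 0.999 and 0.999 by limma. Efnb3 had 1213, 1234 and 4502 normalized counts in saline mice 1, 6 and 10, against 4339, 2865 and 2807 in ketamine mice 3, 5 and 9. Saline mouse 10 was above all ketamine mice, and the other saline mice were below them. Without saline mouse 10, DESeq2 called Efnb3 higher. Efnb2 showed the opposite form, with 2165, 2060.5 and 862 in saline mice, against 2635, 2639.8 and 1912 in ketamine mice. Efnb1 had 389, 414 and 295 in saline mice, against 394, 544 and 518 in ketamine mice, and its groups overlapped by a single pair of mice.

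Semaphorins of classes 4 to 7, which are bound to the membrane, were 7 higher and 6 lower on average of 13, with a median log2 fold change of 0.01. Sema7a, which binds integrins and plexin C1, lies at chr9:57787920-57810671 of mm9, on the plus strand. Its saline mean per kb was the highest of the guidance genes, though not separated by spread from those of Ephb6 and Epha4. Saline mice 1, 6 and 10 had 5188, 4547 and 4963 normalized counts, against 2522, 3488 and 3239 in ketamine mice 3, 5 and 9. Every ketamine mouse was below every saline mouse, with means of 4899 ± 325.4 and 3083 ± 501.9 (SD, n = 3 each). limma gave a log2 fold change of -0.68 (SE 0.157, adjusted p = 0.401), and DESeq2 gave -0.66 (SE 0.18, adjusted p = 0.0253). The mean of its receptor Plxnc1 was 1828 ± 632.5 in saline mice, against 1807 ± 486.8 in ketamine mice (SD, n = 3 each). Sema4g had 444, 440.1 and 548 in saline mice, against 774, 597 and 559 in ketamine mice, with a log2 fold change of 0.42 (SE 0.177, unadjusted p = 0.0473, adjusted p = 0.851). Its lowest ketamine mouse was just above its highest saline mouse. Sema4f had 1862, 1809 and 1256 in saline mice, against 1161, 1361 and 1177 in ketamine mice, with a log2 fold change of -0.39 (adjusted p = 0.903). Without saline mouse 10, DESeq2 called Sema4f lower and did not call Sema7a. Sema6b had a mean of 4264 ± 618.4 in saline mice, against 4064 ± 337.5 in ketamine mice (SD, n = 3 each).

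Of the 7 secreted class 3 semaphorins, 5 had a higher mean in ketamine mice, and the median log2 fold change was 0.14. Sema3f, which repels axons through Nrp2, had 148, 138 and 197 normalized counts in saline mice 1, 6 and 10, against 356, 204 and 254 in ketamine mice 3, 5 and 9. The groups did not overlap, though ketamine mouse 5 was close to saline mouse 10. The log2 fold change was 0.73 (SE 0.253, unadjusted p = 0.0227, adjusted p = 0.733 by limma), and DESeq2 gave an adjusted p of 0.353. Sema3a, which acts through Nrp1, had 927, 788 and 444 in saline mice, against 920.1, 907 and 880.2 in ketamine mice. Its ketamine mice were within the range of the saline mice, of which mouse 10 was low. Sema3g and Sema3c, the latter the most abundant of the class, had log2 fold changes of 0.20 and 0.11 with an adjusted p of 0.999 each.

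**Figure D3:**
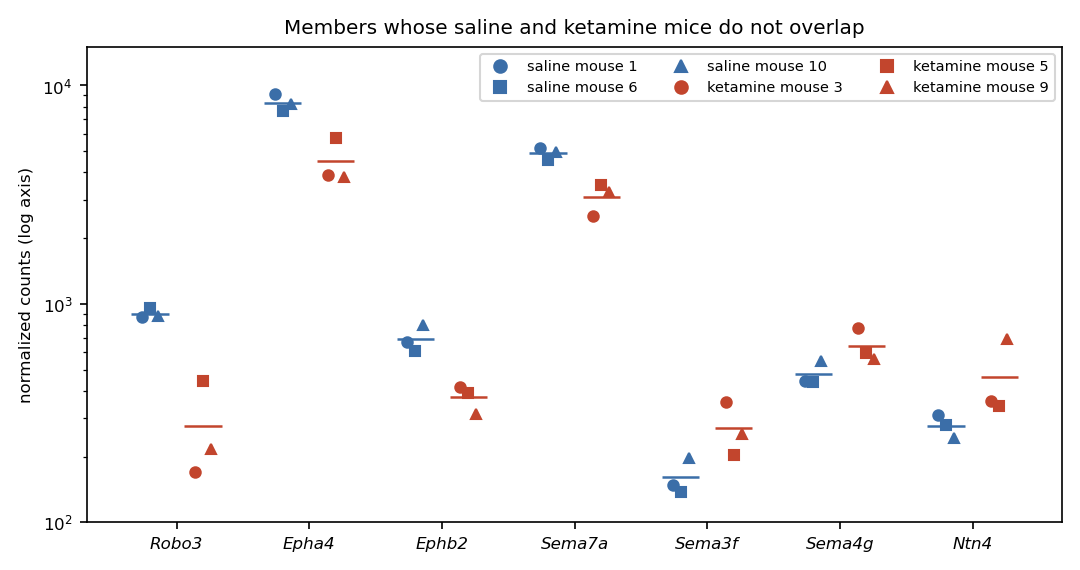
Normalized counts of the 7 genes whose saline and ketamine mice do not overlap, with a point per mouse and a line at the group mean. Robo3, Epha4, Ephb2 and Sema7a are lower, and Sema3f, Sema4g and Ntn4 higher, in all 3 ketamine mice.

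Plexins and neuropilins, the receptors of semaphorins, were 5 higher and 6 lower on average of 11, with a median log2 fold change of -0.01. Without ketamine mouse 9 they were 9 higher and 2 lower, and without ketamine mouse 5 they were 1 higher and 10 lower. Plxna1, a receptor for class 3 semaphorins together with neuropilins, had 4769, 4427 and 3755 normalized counts in saline mice 1, 6 and 10, against 3014, 3775 and 1671 in ketamine mice 3, 5 and 9. The groups overlapped by ketamine mouse 5, and the log2 fold change was -0.69 (SE 0.292, adjusted p = 0.86), which came to -0.35 without ketamine mouse 9. Nrp2 had 732, 729.6 and 964 in saline mice, against 2054, 1465 and 631 in ketamine mice. It was above all saline mice in ketamine mice 3 and 5 and below all of them in ketamine mouse 9, with a log2 fold change of 0.63 (SE 0.405, adjusted p = 0.999). Nrp1 had 1038, 983 and 2097 in saline mice, against 1123, 846 and 894 in ketamine mice, with saline mouse 10 above every other mouse. Plxna2, the plexin with the highest mean, had 5902, 5094 and 3357 in saline mice, against 4842, 5939.9 and 2121 in ketamine mice.

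Both netrins had a higher mean in ketamine mice, but the mice that were high differed between them. Ntn4 had 309, 278 and 243 normalized counts in saline mice 1, 6 and 10, against 358, 339.6 and 689 in ketamine mice 3, 5 and 9. Its groups did not overlap, and the log2 fold change of 0.67 (SE 0.286, adjusted p = 0.865) came to 0.34 without ketamine mouse 9. Ntn1 had 272, 269 and 381 in saline mice, against 903, 460.0 and 267 in ketamine mice, with a log2 fold change of 0.66 (SE 0.416, adjusted p = 0.999). Here ketamine mouse 9 was the lowest of all 6 mice. Of the receptors, Unc5a, the most abundant, had 2733, 2616 and 2577 in saline mice, against 2271, 3115 and 1884 in ketamine mice, with a log2 fold change of -0.16 (adjusted p = 0.999).

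Dcc, the attractive netrin receptor, had the widest interval of the 67 genes and was picked for this after its values were seen. Saline mice 1, 6 and 10 had 222, 202 and 259 normalized counts, against 532.5, 365 and 23.6 in ketamine mice 3, 5 and 9. Ketamine mice 3 and 5 were above all saline mice and ketamine mouse 9 far below them. The log2 fold change of -0.43 by limma had an SE of 1.05 (adjusted p = 0.999). Its direction turned with the method, since edgeR gave 0.44 and DESeq2 0.44 on all mice, and the mean was 227.7 ± 29.1 in saline mice, against 307.0 ± 259.4 in ketamine mice (SD, n = 3 each). Without ketamine mouse 9, limma gave 0.96. The summed striatal markers of ketamine mice 3, 5 and 9, at 62190.1, 30833 and 8838, had the same order as Dcc, Ntn1 and Nrp2. The striatal sums of the saline mice, 6928 to 8677, were close to that of ketamine mouse 9. By the mean log2 level of these markers relative to saline, ketamine mouse 9 was at 0.19. This was above saline mice 1 and 6 and below saline mouse 10, at 0.41. All 3 genes were higher in the saline mice than in ketamine mouse 9, though Ntn1 was close, at 269 in saline mouse 6 against 267. The summed olfactory bulb markers were highest in ketamine mouse 9. The part of these markers in the 3 genes was not tested.

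The same split of the ketamine mice was found in further guidance genes, which were also singled out after their values were seen. In 8 genes, or 11.9%, ketamine mice 3 and 5 were above all saline mice and ketamine mouse 9 below all of them, against 5.63% of all genes tested. They are Dcc, Epha8, Nrp2, Ntn1, Plxnb1, Plxnb2, Robo1 and Unc5c. The reverse was found for 1 gene, Unc50, or 1.49%, against 7.53% of all genes. Ketamine mouse 9 had the lowest value of all 6 mice in 27 genes, or 40.3%, against 29.1% of all genes, and the highest in 10, or 14.9%, against 29.4%. Slit3, for example, had 1070.0, 1019 and 897 normalized counts in saline mice, against 856, 1308 and 290.1 in ketamine mice 3, 5 and 9. Without ketamine mouse 9, 44 guidance genes were higher and 22 lower on average, and without ketamine mice 3 and 5, 24 were higher and 43 lower, and the median log2 fold change was -0.40. These shares describe the libraries, and no test was made between the ketamine mice.

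**Figure D4:**
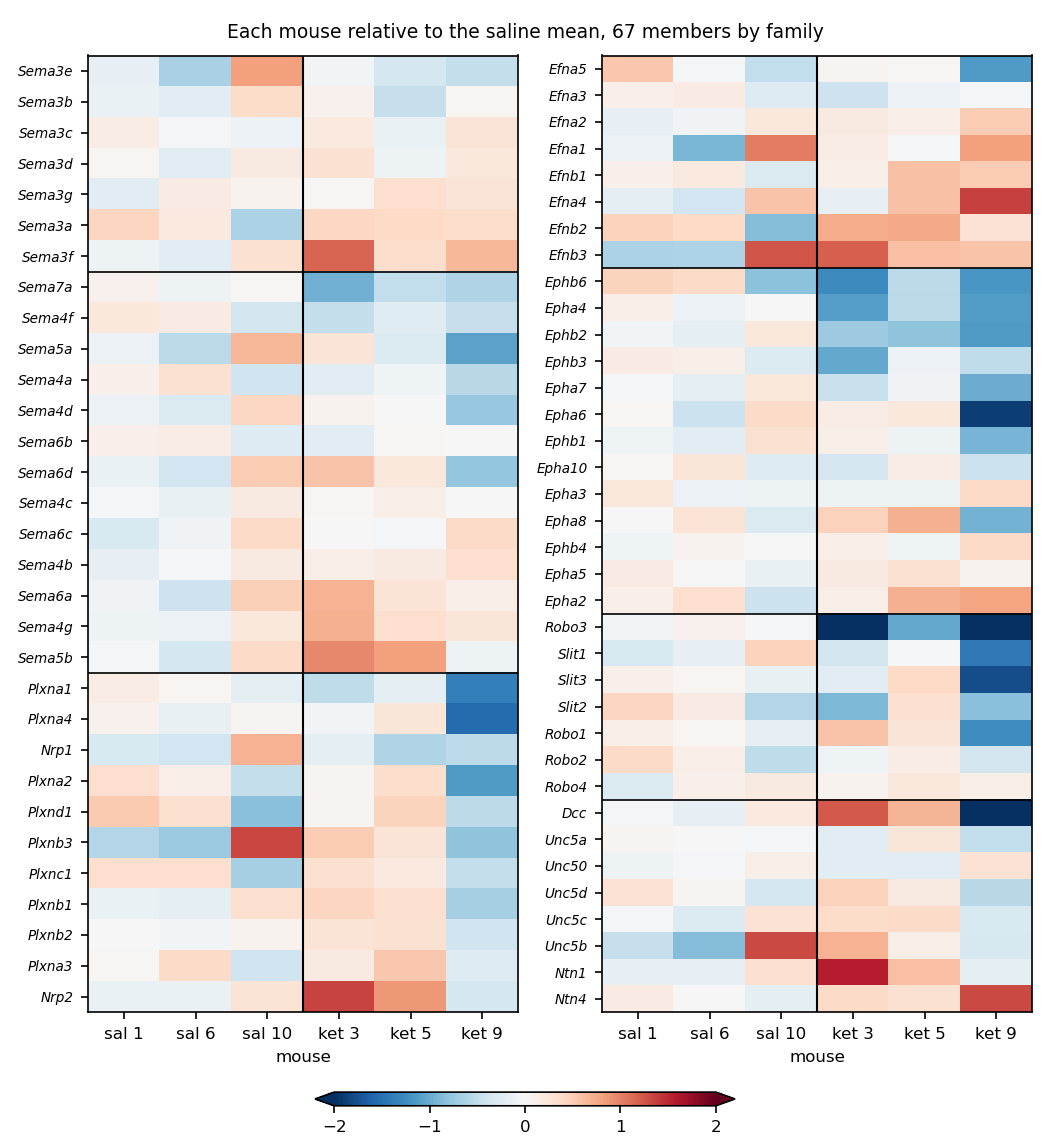
Log2 level of each of the 67 genes in each mouse, as a difference from its mean over the 3 saline mice, in a heat map with genes in rows by family, mice in columns and colours that end at 2 in either direction. Ketamine mouse 9 has the lowest value of the 6 mice in 27 genes, and saline mouse 10 differs from the other saline mice in many rows.

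Saline mouse 10 stood apart in other genes. In 10 guidance genes, or 14.9%, it was at least 1.5 times both other saline mice, against 8.53% of all genes, and in 8, or 11.9%, it was as far below both, against 7.33%. The high genes include the plexin gene Plxnb3, with 303, 271 and 1153 normalized counts in saline mice 1, 6 and 10, and the netrin receptor gene Unc5b, with 434, 326 and 1499. In ketamine mice 3, 5 and 9, Plxnb3 was at 652, 548 and 262 and Unc5b at 965, 646 and 479.5. With Efnb3 and Nrp1, these genes were highest in the mouse whose summed oligodendrocyte markers were 393344, and the part of those markers was not tested. Robo3, Epha4, Ephb2 and Sema7a are not among these genes, and saline mouse 10 lay within 1.5 times both other saline mice for each of them.

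**Figure D5:**
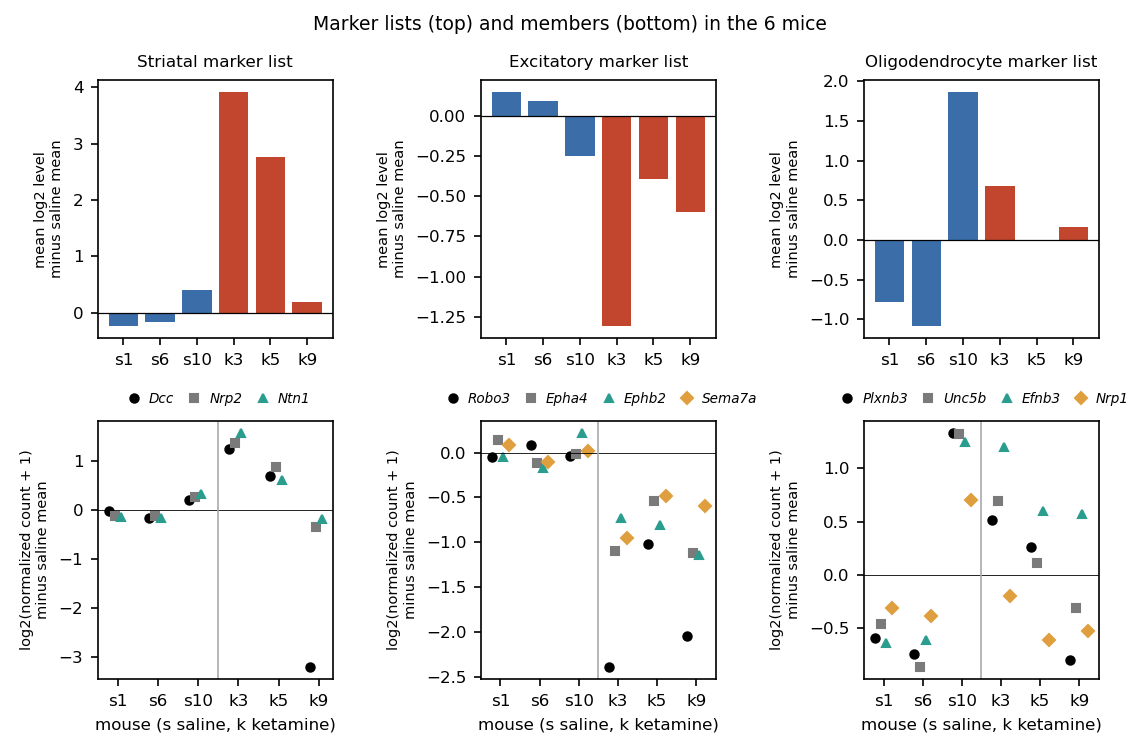
Marker list scores per mouse (top row: mean log2 level relative to saline, for striatal, excitatory neuron and oligodendrocyte markers) above the log2 level relative to the saline mean of guidance genes that are described beside them (bottom row). Dcc, Nrp2 and Ntn1 are high in ketamine mice 3 and 5, and Plxnb3, Unc5b, Efnb3 and Nrp1 in saline mouse 10.

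Of 86 other genes of the guidance pathways, 36 had a higher and 50 a lower mean in ketamine mice, and the median log2 fold change was -0.05. limma and edgeR called 0 of them, with 9 at an unadjusted p under 0.05 by limma (5.81% of all genes), and DESeq2 called 1 (1.13% of all genes), Dpysl5, a collapsin response mediator protein that carries semaphorin signals to the cytoskeleton. Dpysl5 rose by DESeq2 (adjusted p = 0.00042), with 667, 582 and 740.2 normalized counts in saline mice 1, 6 and 10, against 1555, 1158 and 1208 in ketamine mice 3, 5 and 9. The groups were far apart, with a log2 fold change of 0.97 by limma (SE 0.167, adjusted p = 0.257). Dpysl5 is also known from immature neurons, and the summed level of the 6 neuroblast markers was between 2025 and 2065 in saline mice, against 3994, 4102 and 7549 in ketamine mice 3, 5 and 9, the part of which was not tested. Mical2, an enzyme that oxidizes actin, had 11979, 10972 and 8452 in saline mice, against 4022, 7629.5 and 4694 in ketamine mice (log2 fold change -0.98, adjusted p = 0.524 by limma and 0.0656 by DESeq2). Ntng1, a netrin relative anchored to the membrane, had 419.6, 333 and 494 in saline mice, against 764, 564 and 902 in ketamine mice (log2 fold change 0.83, adjusted p = 0.551 by limma and 0.085 by DESeq2). The groups did not overlap in either gene. The groups did not overlap for 15 of the 86 genes, 10 of them higher and 5 lower in ketamine mice, where 10.3%, 5.69% and 4.66% of all genes did not overlap, were higher and were lower. Of the 10 FLRT and adhesion co-receptors 9 were lower on average, with a median log2 fold change of -0.14, and of the 23 GTPases and their regulators 15 were lower, with a median of -0.09. These counts rest on ketamine mouse 9, without which 3 of the 10 co-receptors and 11 of the 23 GTPase genes were lower, and 53 of all 86 genes were higher and 33 lower. With all mice, the kinases, adaptors and cytoskeletal effectors were 14 higher and 15 lower, the netrin, draxin, RGM and neogenin genes 5 and 5, the chemokine and Wnt cues 5 and 4, and the collapsin response mediator proteins 3 and 2.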

How the data were processed

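Gene expression was measured by RNA sequencing in the PLc of 3 saline and 3 ketamine mice, grouped by the treatment in the labels. The submitters' processing notes name CASAVA, TopHat2 2.0.11, mm9, HTSeq and DESeq2. The authors deposited a signal per gene, namely read counts scaled by the size factor of their library, here called normalized counts. The annotation, strand setting and filters are not given in the sources used here, so antisense genes may share reads. Whole reads were recovered for 100.0% of values (within 0.02 reads), giving between 26273436 and 32643726 reads per library.

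limma 3.58.1 (R 4.3.3, with a variance trend) was fitted to log2(normalized count + 1) for all genes with a mean of at least 10, two-sided, with Benjamini-Hochberg adjustment and a threshold of 0.05. edgeR 4.0.16 (quasi-likelihood) and DESeq2 1.42.0 were fitted to the recovered reads as alternatives, besides other pseudocounts, filters and scalings and mice left out. The DESeq2 fits and counts of genes without overlap with mice left out, counts per list and values of Dcc, Robo1, Robo4 and Slit3 under the alternatives were added after seeing the data. The scripts were tested on simulated reads, in which DESeq2 made more false calls than limma or edgeR. The spread of these reads was estimated by edgeR, so the simulation cannot tell which calls in these data are false. Coordinates and exon lengths are from GENCODE M1 on mm9, which holds 37205 of the 37620 identifiers. Symbols were deposited for 20515 genes, and others were taken from a gene name table.

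The genes and lists were chosen with earlier results of these data known. Named were, in each family, the 3 genes with the smallest limma p and the gene with the highest mean, every gene called by a test, every gene without overlap and with a log2 fold change of at least 0.5 in either direction, the genes at the minimum mean, ligands or receptors of named genes, and the 3 other pathway genes with the smallest p. Dcc, Slit3, Plxnb3, Unc5b, Sema5b and the genes named for their pattern over mice were chosen after their values were seen.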

Additional observations from a re-analysis of the deposited data

How the results depend on the processing

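No paired analysis was possible because the saline and ketamine mice share no number. limma called 0 genes with all mice and between 0 and 1 with a mouse left out, while DESeq2 called 182 genes, 4 guidance genes and 1 other pathway gene, where limma and edgeR called 0 of each. The guidance genes called by DESeq2 were between 1 and 8 with a mouse left out (1 without saline mouse 1, 2 without saline mouse 6 or ketamine mouse 3, 8 without ketamine mouse 9) and 15 without ketamine mice 3 and 5. The guidance genes without overlap were 7 with all mice and between 10 and 24 with a mouse left out. They were 24 without saline mouse 10, 12 without ketamine mouse 3, 20 without ketamine mouse 5 and 19 without ketamine mouse 9. Fewer mice make overlap less likely. The share of all genes without overlap was not counted with a mouse left out, so these counts cannot be set against a background. For 33 genes (29 by the naming rule, with Dcc, Robo1, Robo4 and Slit3), 292 of 296 log2 fold changes kept their direction under alternatives that left out no mouse, the exceptions being Dcc (edgeR 0.4442, DESeq2 0.438) and Robo1 (edgeR 0.0578, DESeq2 0.0493). Of all 67 guidance genes 62 kept it, and Unc5b, Plxnc1 and Plxnb3 were the others that did not. With each mouse left out, 25 of the 33 kept it. Robo2 ranged from -0.35 to 0.0882, Sema6b from -0.19 to 0.0115, Unc5a from -0.35 to 0.0099, Plxna2 from -0.54 to 0.20, Slit3 from -0.99 to 0.0914, Robo4 from -0.0061 to 0.23, Robo1 from -0.49 to 0.41 and Dcc from -1.26 to 0.96 with a mouse left out. Without ketamine mice 3 and 5, Ntn1 came to -0.18 and Nrp2 to -0.34. The cause of these changes was not tested. Guidance genes were 34 higher and 33 lower with all mice, 44 and 22 without ketamine mouse 9, 29 and 38 without ketamine mouse 3 or mouse 5, and 24 and 43 without both. Rescaling moved the median of all genes by at most 0.0086 (log2). Depth limits Efna4, with at most 21.8 normalized counts in a mouse, more than the other genes, and with 3 mice a group the 95% interval of the log2 fold change had a median half-width of 0.65 and lay within 1 of 0 for 33 of 67 genes.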
